A study of Mus musculus with 6 samples.

Results

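A set of 10 marker genes of preadipocytes and adipose fibroblasts, Pdgfra, Cd34, Ly6a, Dpp4, Pi16, Fap, Zfp423, Dcn, Lum and Gsn, was followed in subcutaneous white adipose tissue of 6 mice. They were chosen by gene symbol, 10 of the 40428 features in the count table, and all 10 passed the filter on low counts. RNA was sequenced from whole tissue of 3 control mice, which carried floxed alleles of Nampt (flox/flox), and 3 ANKO mice, in which Nampt was deleted in adipocytes. ANKO mice came from crossing the Nampt flox line to an adiponectin-Cre transgene, so the deletion follows the activity of the adiponectin promoter, which is an adipocyte promoter. Both groups had the C57BL/6J background and ate regular chow at room temperature. The labels give neither ages nor whether controls carried Cre. The comparison asks how these stromal genes stood when the rate-limiting enzyme of NAD salvage was deleted in the neighbouring adipocytes.

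White fat holds, beside adipocytes, a stroma of fibroblast-like cells around vessels and in the septa between lobules, and some of these cells can become adipocytes. Pdgfra, a receptor for platelet-derived growth factor, marks nearly the whole population, and Dpp4 and Pi16 mark its early, interstitial members. Dcn and Lum are proteoglycans that these cells secrete into collagen matrix. Several of the genes are not restricted to the stroma: endothelial cells also carry Cd34 and Ly6a, and mature adipocytes also express Zfp423 and Gsn.

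The libraries held 19748962 to 23860596 counts, and the targeted gene was lower in each ANKO library than in any control. Nampt stood at 83.6, 93.0 and 87.0 CPM (counts scaled to library size) in controls and at 48.6, 50.2 and 47.0 CPM in ANKO (edgeR log2 fold change -0.85, SE 0.0776, adjusted p = 0.00416). Skeletal muscle RNA differed widely within both groups, with a summed level of 17 muscle fibre genes of 3466 to 18504 CPM in controls and 272 to 35053 CPM in ANKO. All 6 libraries carry the same flow cell and lane in their labels. In whole tissue, fewer cells of a type and less RNA per cell cannot be told apart.

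Of the 10 markers 2 fell in ANKO tissue, Zfp423 and Gsn, and none rose by edgeR's test at an adjusted p under 0.05 over all 19272 features. The same test called 1.1% of all features lower, 0.488% higher and 1.59% in either direction. At an unadjusted p under 0.05 there were 4, the 2 above and, with higher values in ANKO, Dcn and Lum. Of all features 12.9% met that threshold, 6.03% higher and 6.9% lower. DESeq2 called Dcn and Lum higher while limma-voom called neither. Log2 fold changes were above 0 for 7 markers and below 0 for 3, with a median of 0.15 beside 0.00068 over all features, of which 50.1% were above 0. The 3 values of one group lay wholly above or below those of the other for 5 markers, Zfp423 and Gsn below and Dcn, Lum and Fap above, against 19.4% of all features, 10.2% below and 9.19% above.

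**Figure D1:**
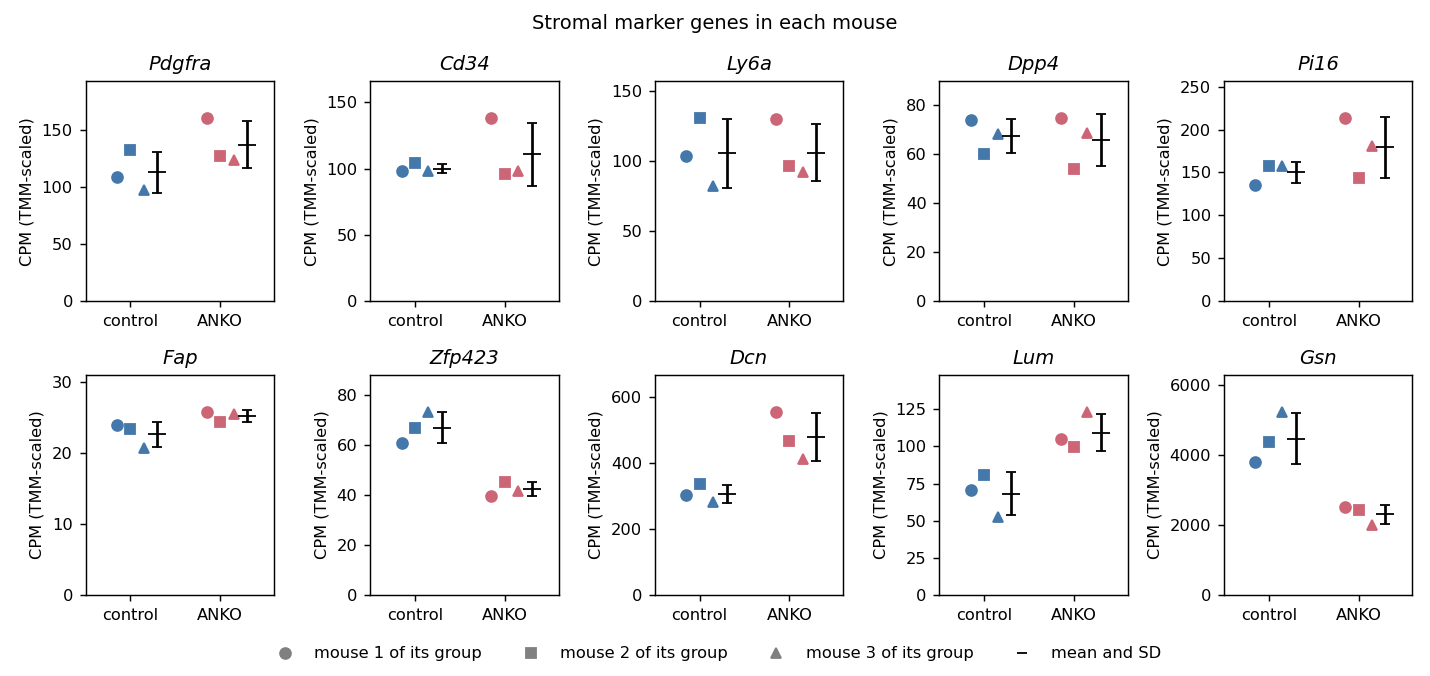
TMM-scaled CPM of each marker on the vertical axis, each starting at 0, in control and ANKO mice. Points are single mice, shaped by their number within the group, and the bar is the mean with its SD (n = 3). The ANKO points lie below all controls for Zfp423 and Gsn, above them for Dcn, Lum and Fap, and among them for the other 5.

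The stretch around the annotated start sites is shown for the 2 genes that fell and for Dpp4, which marks the early progenitors. RefSeq promoter windows (GRCm38.p6, 250 bases before to 50 after a start) matched 6 of the 10 genes with 9 windows. Fap, Dcn, Lum and Ly6a had no entry. The windows of Pdgfra, Cd34 and Pi16, which like Dpp4 marks early progenitors, are not printed. Capitals mark matches on either strand to 4 motifs. These were the core promoter element TATAAA, the upstream element of proximal promoters CCAAT, the half-site of nuclear receptors such as PPARG, which reads AGGTCA, and the palindrome of early B cell factors, partners of Zfp423. That palindrome was searched as TCCC followed, after any 2 bases, by GGGA. It reads the same on both strands, and no match in these windows overlaps another. Each window is written 5′ to 3′ on the gene's strand.
Gsn start 1, chr2:35256109-35256408, plus strand: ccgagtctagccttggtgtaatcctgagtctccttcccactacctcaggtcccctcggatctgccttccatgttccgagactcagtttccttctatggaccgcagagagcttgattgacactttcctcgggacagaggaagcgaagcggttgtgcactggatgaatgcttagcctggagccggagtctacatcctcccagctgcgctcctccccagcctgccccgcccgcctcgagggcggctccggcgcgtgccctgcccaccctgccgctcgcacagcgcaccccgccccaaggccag
Gsn start 2, chr2:35266494-35266793, plus strand: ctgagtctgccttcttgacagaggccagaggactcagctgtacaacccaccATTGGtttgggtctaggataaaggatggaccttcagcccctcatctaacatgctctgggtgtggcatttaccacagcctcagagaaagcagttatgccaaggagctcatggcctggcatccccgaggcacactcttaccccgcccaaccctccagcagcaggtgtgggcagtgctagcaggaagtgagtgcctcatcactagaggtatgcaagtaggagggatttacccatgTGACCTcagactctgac
Gsn start 3, chr2:35282130-35282429, plus strand: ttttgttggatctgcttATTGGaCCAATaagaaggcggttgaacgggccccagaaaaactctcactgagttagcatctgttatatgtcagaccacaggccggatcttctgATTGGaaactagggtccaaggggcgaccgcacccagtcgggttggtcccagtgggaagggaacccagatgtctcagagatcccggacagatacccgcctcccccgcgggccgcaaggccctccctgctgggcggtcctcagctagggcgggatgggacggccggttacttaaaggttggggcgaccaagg
Zfp423 start 1, chr8:87959546-87959845, minus strand: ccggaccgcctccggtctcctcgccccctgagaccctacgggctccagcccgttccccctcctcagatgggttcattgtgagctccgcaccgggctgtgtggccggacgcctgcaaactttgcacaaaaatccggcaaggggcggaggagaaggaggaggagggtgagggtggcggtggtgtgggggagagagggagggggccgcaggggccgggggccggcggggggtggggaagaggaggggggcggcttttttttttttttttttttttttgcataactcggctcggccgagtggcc
Zfp423 start 2, chr8:87804390-87804689, minus strand: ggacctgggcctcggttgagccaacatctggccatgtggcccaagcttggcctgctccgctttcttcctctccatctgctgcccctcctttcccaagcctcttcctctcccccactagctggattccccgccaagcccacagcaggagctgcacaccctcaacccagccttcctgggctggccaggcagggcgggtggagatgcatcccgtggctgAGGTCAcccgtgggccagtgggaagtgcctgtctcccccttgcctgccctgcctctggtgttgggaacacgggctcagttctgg
Dpp4, chr2:62412182-62412481, minus strand: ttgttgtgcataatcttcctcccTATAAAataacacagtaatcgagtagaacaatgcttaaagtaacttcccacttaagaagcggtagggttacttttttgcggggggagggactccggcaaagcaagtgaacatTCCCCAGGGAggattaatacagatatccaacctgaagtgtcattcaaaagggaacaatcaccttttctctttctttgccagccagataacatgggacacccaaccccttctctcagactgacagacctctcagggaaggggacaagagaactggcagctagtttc

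The third Gsn window held 3 CCAAT matches, which begin 233, 227 and 140 bases before the start, and the second held 1. The Pi16 window held a CCAAT that begins 64 bases before the start. Of all 32851 promoter windows of this length, 37.4% held at least 1 CCAAT. The half-site AGGTCA, which occurs in 16.3% of all windows, was found in the second Gsn and the second Zfp423 window. It begins 33 bases after the start in the Gsn window and 34 bases before it in the Zfp423 window. The first windows of Gsn and Zfp423 held none of the 4 motifs. The early B cell factor palindrome occurred in 0.904% of all windows and, among the 9 windows of these markers, in that of Dpp4 alone, 115 bases before the start. A TATAAA lay 227 bases before the start of Dpp4, and 13.6% of all windows hold one. These are matches of letters at any distance from the start, and whether any of them acts in the promoter was not tested. The Gsn windows have a GC content of 63.7%, 54.7% and 58.7%, those of Zfp423 65.7% and 65%, and that of Dpp4 45.3%. The deposited counts give 1 value per gene, so they do not show which start was used.

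Zfp423 encodes a zinc finger transcription factor that commits fibroblasts to the preadipocyte state and, in mature white adipocytes, restrains thermogenic genes. It lies on chromosome 8 (GRCm38, 87661810 to 87959595, minus strand), with 5 protein-coding transcripts in GENCODE M21. Control mice had 60.6, 66.7 and 73.3 CPM and ANKO mice 39.7, 45.2 and 41.7 CPM. Every ANKO value lay below the lowest control. Its mean fell from 66.9 ± 6.34 to 42.2 ± 2.79 CPM (SD, n = 3), or 63.1% of control (log2 fold change -0.66, SE 0.0981, edgeR adjusted p = 0.0193). Zfp521, its close paralogue, stood at 40.5 ± 3.78 CPM in controls and 44.03 ± 7.15 CPM in ANKO mice (log2 fold change 0.12, adjusted p = 0.786). The call on Zfp423 was lost without control 2, control 3, ANKO 1 or ANKO 3 (adjusted p = 0.0732, 0.0575, 0.0656 and 0.0949). With skeletal muscle RNA as a covariate the log2 fold change was again -0.66 but the adjusted p was 0.0642.

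Gsn encodes gelsolin, which severs and caps actin filaments inside cells and, in a secreted form, clears actin from plasma. It lies on chromosome 2 (35256380 to 35307892, plus strand), has 6 protein-coding transcripts, and its counts cover both the cytoplasmic and the secreted form. Control mice had 3791, 4352 and 5232 CPM and ANKO mice 2506, 2419 and 1993 CPM. The highest ANKO mouse was thus below the lowest control. Gsn fell from 4458 ± 726 to 2306 ± 275 CPM, to 51.7% of control (log2 fold change -0.95, SE 0.160, edgeR adjusted p = 0.0315). Gsn made up 0.383% to 0.5% of all counts in controls and 0.21% to 0.25% in ANKO, while the other 9 markers together took 0.0889% to 0.11% and 0.112% to 0.144%. The summed level of all 10 markers therefore follows Gsn, at 4772 to 6163 CPM in controls and 3159 to 3950 CPM in ANKO. The call was lost without control 2, control 3, ANKO 1, ANKO 2 or ANKO 3 (adjusted p = 0.102, 0.059, 0.0681, 0.0869 and 0.142) and with the muscle covariate (log2 fold change -0.88, adjusted p = 0.0903).

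Of the 7 other gelsolin-type genes, which include the capping protein Capg and the membrane linker Svil, none was called by edgeR, DESeq2 or limma-voom, and none had an unadjusted p under 0.05. All 7 had a log2 fold change above 0, with a median of 0.23. The smallest p was that of Avil, advillin (2.13 CPM in controls, 3.21 CPM in ANKO mice, log2 fold change 0.59, adjusted p = 0.563). Flii, one of the more abundant of these genes, stood at 168 and 170.3 CPM (log2 fold change 0.02, adjusted p = 0.967).

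**Figure D2:**
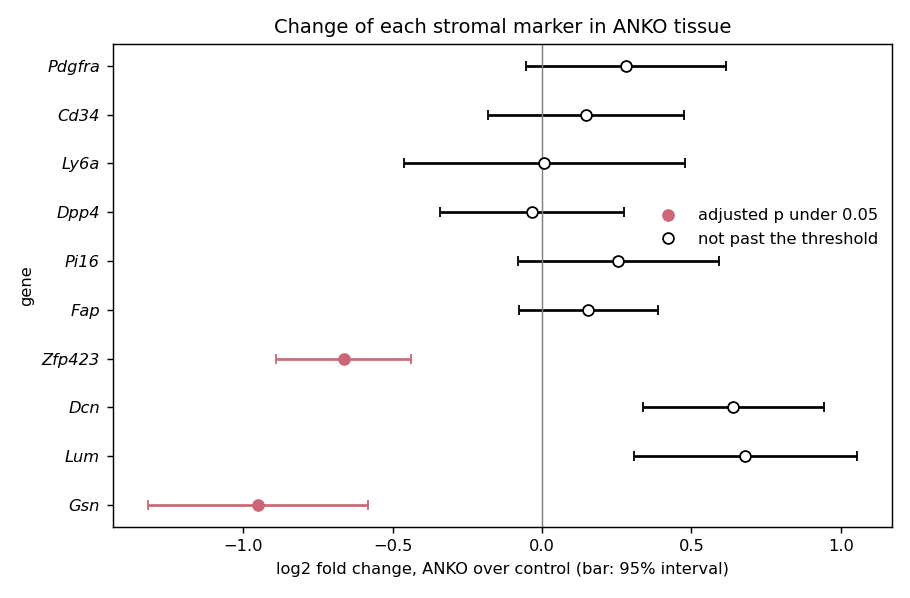
Log2 fold change of each marker, ANKO over control, on the horizontal axis, with bars for the 95% interval of edgeR's fit (3 mice per group). Filled points, Zfp423 and Gsn, passed the adjusted p of 0.05. The intervals of Dcn and Lum also lie clear of 0, and those of the other 6 include it.

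The 2 matrix proteoglycans had higher values in every ANKO mouse without passing the threshold. Dcn encodes decorin, a small leucine-rich proteoglycan that binds collagen fibrils and TGF-beta. It was measured at 304, 336 and 281 CPM in controls and at 556, 467 and 412 CPM in ANKO. The groups did not overlap (307 ± 27.6 and 479 ± 72.5 CPM, log2 fold change 0.64, SE 0.131, edgeR adjusted p = 0.064). The edgeR adjusted p was 0.0499 with upper-quartile scaling and 0.0142 without the low-count filter, and DESeq2 gave adjusted p = 0.000515.

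Lum encodes lumican, a relative of decorin that spaces collagen fibrils. Its values were 70.7, 81.0 and 52.8 CPM in controls and 104.8, 99.7 and 123 CPM in ANKO, again without overlap. The means were 68.2 ± 14.3 and 109 ± 12.5 CPM (log2 fold change 0.68, SE 0.161, edgeR adjusted p = 0.105), and DESeq2 gave adjusted p = 0.00653. Dcn (chromosome 10, 97479609 to 97518143) and Lum (97565128 to 97572703) are neighbours on the plus strand, 47 kb apart with no protein-coding gene between them. Within each library the ratio of Gsn to Dcn counts, which needs no scaling, was 12.5, 12.95 and 18.6 in controls and 4.51, 5.18 and 4.83 in ANKO.

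Among 8 other small leucine-rich proteoglycans tested, 1 was called, and it went the other way. Podn, podocan, had 60.4, 72.3 and 84.3 CPM in controls and 30.0, 26.5 and 23.3 CPM in ANKO, so each ANKO value was at most 30.0 CPM. Podn fell to 36.8% of control (72.3 ± 11.9 to 26.6 ± 3.34 CPM, log2 fold change -1.44, SE 0.145, edgeR adjusted p = 0.00577). It was called under all 16 alternatives run, including each fit without 1 library (highest adjusted p = 0.0382). Bgn, biglycan, the closest relative of decorin, stood at 169 ± 7.72 CPM in controls and 203 ± 12.8 CPM in ANKO (log2 fold change 0.27, adjusted p = 0.218). Prelp had 171 ± 21.3 and 133 ± 14.2 CPM (log2 fold change -0.37, adjusted p = 0.228).

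The surface markers that define the population did not pass the test. Pdgfra (chromosome 5, 75152292 to 75198215, plus strand) was measured at 109, 133 and 97.1 CPM in controls and at 161, 127 and 124 CPM in ANKO. The second control exceeded 2 of the ANKO mice, and the log2 fold change was 0.28 (SE 0.145, 95% interval -0.05 to 0.62, adjusted p = 0.485). Cd34 (chromosome 1, 194938819 to 194961279, plus strand), a sialomucin on progenitors and endothelium, had 98.1, 104 and 98.3 CPM in controls and 138, 95.8 and 98.5 CPM in ANKO. Apart from ANKO 1 the values span 95.8 to 104 CPM (log2 fold change 0.15, interval -0.18 to 0.48, adjusted p = 0.756). Ly6a (chromosome 15, 74994877 to 74998031, minus strand), the stem cell antigen used to sort progenitors, had 104, 131 and 82.0 CPM in controls and 129.9, 96.5 and 92.3 CPM in ANKO. Its groups overlapped fully, with a log2 fold change of 0.01 (interval -0.46 to 0.48, adjusted p = 0.994). Ly6a has close relatives in the Ly6 cluster, and the sources used here do not say how reads matching more than 1 of them were counted. Of 8 other Ly6-type genes tested edgeR, DESeq2 and limma-voom called none, and 1, Ly6h, had an unadjusted p under 0.05 (4.63 and 2.28 CPM, log2 fold change -1.02, adjusted p = 0.186).

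Dpp4 and Fap are serine proteases of one family and lie on the minus strand of chromosome 2, 88.7 kb apart, with the glucagon gene Gcg between them. Dpp4, which removes N-terminal dipeptides from incretins and chemokines, stood at 74.0, 60.0 and 68.1 CPM in controls and at 74.9, 54.1 and 68.5 CPM in ANKO. Both the highest and the lowest of its values came from ANKO mice (log2 fold change -0.03, SE 0.134, interval -0.34 to 0.28, adjusted p = 0.959). Fap, fibroblast activation protein, had 23.9, 23.3 and 20.7 CPM in controls and 25.8, 24.3 and 25.5 CPM in ANKO. These groups did not overlap, but they lie close together (log2 fold change 0.16, SE 0.101, interval -0.08 to 0.39, adjusted p = 0.602). Pi16 (chromosome 17, 29317680 to 29330593, plus strand), a peptidase inhibitor-like surface protein of the interstitial progenitors, had 136, 157.5 and 157.3 CPM in controls and 214, 144 and 180.3 CPM in ANKO (log2 fold change 0.25, interval -0.08 to 0.59, adjusted p = 0.539). The upper ends of the 95% intervals allow an increase of 1.51-fold for Pi16, 1.53-fold for Pdgfra and 1.31-fold for Fap. Of 6 other dipeptidyl peptidase genes edgeR, DESeq2 and limma-voom called none, and 2 had an unadjusted p under 0.05. The smallest p was that of the lysosomal Dpp7 (16.5 and 21.9 CPM, log2 fold change 0.41, adjusted p = 0.301).

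Exon length was taken as the union over all annotated transcripts of a gene, and no other length was tried. Per kilobase of exon, the order of the markers in controls was led by Gsn at 1412 ± 230.1 CPM per kb. Ly6a followed at 87.7 ± 20.4 and Dcn at 52.6 ± 4.73 CPM per kb. Lum at 27.8 ± 5.84 and Pi16 at 23.6 ± 1.95 overlapped in single mice, and Cd34 stood at 13.7 ± 0.461 CPM per kb. Zfp423 at 11.9 ± 1.13, Pdgfra at 11.3 ± 1.81 and Dpp4 at 10.7 ± 1.11 CPM per kb did not differ beyond their spread. Fap was lowest, at 3.998 ± 0.306 CPM per kb. In ANKO tissue Gsn still led at 730 ± 87.0 CPM per kb. There Ly6a at 88.2 ± 17.1 and Dcn at 82.0 ± 12.4 overlapped, and Zfp423 at 7.53 ± 0.497 lay below every ANKO value of Dpp4 (8.57 to 11.85 CPM per kb).

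Single mice stood out across several markers. ANKO 1 had the highest value of 6 markers (Pdgfra, Dpp4, Pi16, Cd34, Dcn and Fap), and control 3 the lowest of 5 (Pdgfra, Ly6a, Dcn, Lum and Fap). Control 3 also had the highest value of Gsn and of Zfp423. The summed level of 12 mature adipocyte genes was lowest in ANKO 1 (6750 CPM) and highest in control 3 (23128 CPM). ANKO 1 also had the highest summed muscle level. Control 3 had the lowest summed level of 8 epithelial genes, 257 CPM beside 779 to 1836 CPM in the other 5 mice. Without ANKO 1 the log2 fold change of Cd34 was -0.02 and that of Ly6a -0.14. The part of adipocyte, muscle or epithelial RNA in these differences was not tested.

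**Figure D3:**
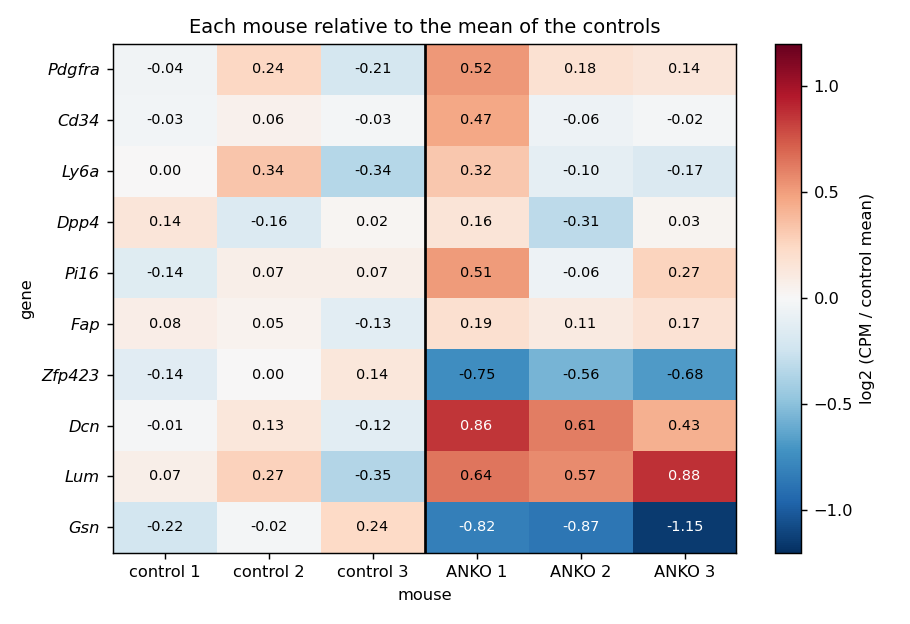
Log2 ratio of each marker's CPM to the geometric mean of the 3 controls, 1 column per mouse and 1 row per gene. Rows of Zfp423 and Gsn run from -0.56 to -1.15 in the ANKO mice, those of Dcn and Lum from 0.43 to 0.88, and ANKO 1 has raised values in most other rows.

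Of all pairs of markers the closest in profile was Pi16 and Cd34, whose centred log2 CPM differed by 0.122 (root mean square over the 6 mice), followed by Pdgfra and Cd34 at 0.144. Among 10163 named genes of at least 10 CPM, the 3 most like Gsn were Acat1, Echdc3 and Pcca, at 0.0793, 0.088 and 0.10. Acat1 and Pcca encode mitochondrial enzymes of amino acid and ketone metabolism, and all 3 genes were themselves called lower (log2 fold change -0.99, -1.10 and -0.82). Acat1 was called under all 16 alternatives, Pcca under 15, not without ANKO 3 (adjusted p = 0.0552), and Echdc3 under 8, among the fits without 1 library only in that without control 1 (otherwise 0.0602 to 0.127). The 3 most like Zfp423 were Ndufb3, Dram1 and Sh3glb2 (0.0358, 0.0435 and 0.0457), also called lower (log2 fold change -0.66, -0.71 and -0.62). They were called under 9, 11 and 7 of the 16 alternatives, and each lost its call without control 2, control 3, ANKO 1 or ANKO 3 (adjusted p = 0.0763 to 0.179). Ndufb3 and Sh3glb2 also lost it without ANKO 2 (0.0689 and 0.0884). Those most like Pdgfra were Cpt1c, Il1rl2 and Selenom (0.0481, 0.0503 and 0.0507), none of them called by edgeR, DESeq2 or limma-voom. The measure includes the difference between the groups, so genes with a similar fold change score as alike.

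Of 20 pan-stromal genes tested 1 rose, which is 5%, beside 0.488% of all features. At an unadjusted p under 0.05 there were 9, 8 with higher values in ANKO and 1 with lower, beside 6.03% and 6.9% of all features. The median log2 fold change was 0.23, and 16 of the 20 were above 0. The 8 included the collagen genes Col1a1 and Col1a2 (log2 fold change 0.53 and 0.50, edgeR adjusted p = 0.368 and 0.372), fibronectin, Fn1 (0.54, adjusted p = 0.306), and the mesenchymal transcription factor Prrx1 (0.43, adjusted p = 0.0986). Also among them were Serpinf1 (0.40, edgeR adjusted p = 0.1435), Cd44 (0.42, 0.173), Sfrp4 (0.58, 0.309) and Sfrp2, described below. For Serpinf1, Cd44, Sfrp4 and Prrx1 all ANKO values exceeded all controls. The 1 lower was Eng, endoglin, which endothelial cells also carry (-0.29, adjusted p = 0.196). For Col1a1, Col1a2 and Fn1 the ANKO 2 value lay within the control range (1979, 1542 and 1110 CPM). Other collagen genes of the list, Col3a1 and Col6a3, had log2 fold changes of 0.14 and 0.003 (edgeR adjusted p = 0.866 and 0.997). The gene that rose was Sfrp2, a secreted Wnt modulator of fibroblasts, at 28.5, 30.6 and 27.1 CPM in controls and 52.9, 43.8 and 61.2 CPM in ANKO (log2 fold change 0.87, SE 0.131, edgeR adjusted p = 0.0203). All ANKO values exceeded all controls. The call on Sfrp2 was lost without any 1 of the libraries except ANKO 2 (adjusted p = 0.0622 to 0.0716) and with the muscle covariate (adjusted p = 0.0514). DESeq2 called 2 pan-stromal genes higher and limma-voom 1. Pdgfrb, the receptor shared with mural cells, stood at 101 ± 3.76 and 107 ± 7.72 CPM (log2 fold change 0.08, adjusted p = 0.767).

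None of 12 early progenitor genes, 9 committed preadipocyte genes and 9 genes of F3-type regulatory stromal cells was called by edgeR, DESeq2 or limma-voom. At an unadjusted p under 0.05 there were 1, 3 and 2 of them, beside 12.9% of all features. The 1 early progenitor gene and the 2 regulatory genes were higher in ANKO. Of the committed genes 1 was higher and 2, Fabp4 and Cebpa, were lower. The median log2 fold changes were 0.11, -0.20 and 0.22. Of the committed genes 3 were above 0 and 6 below it. This list shares Fabp4 and Pparg (log2 fold change -0.68 and -0.51) with the mature adipocyte list. Its median is therefore not a measure of preadipocytes alone. In the early progenitor list the smallest p was that of the secreted semaphorin Sema3c (63.3 and 79.8 CPM, log2 fold change 0.33, adjusted p = 0.288). In the committed list it was that of the adipogenic transcription factor Cebpa (757 and 493 CPM, log2 fold change -0.62, adjusted p = 0.251), which mature adipocytes also express. In the regulatory list it was that of matrix Gla protein, Mgp (11.5 and 14.9 CPM, log2 fold change 0.37, adjusted p = 0.321).

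**Figure D4:**
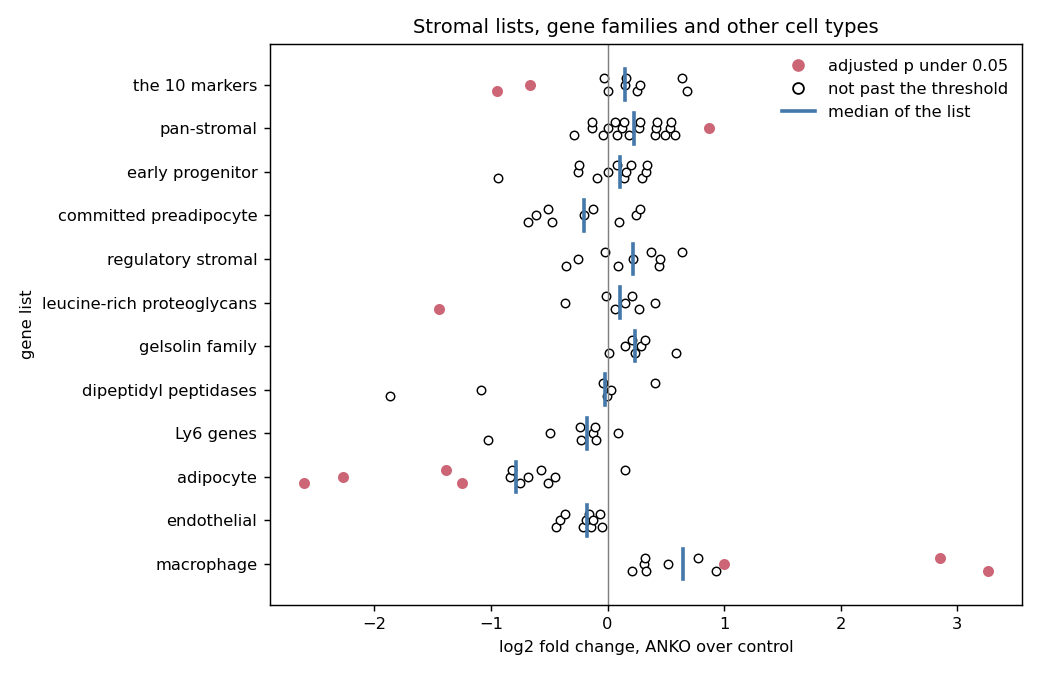
Log2 fold change, ANKO over control, of every tested gene of 12 lists, 1 point per gene, with a bar at each list's median. Filled points passed the adjusted p of 0.05. Fabp4 and Pparg appear in both the committed preadipocyte and the adipocyte list. Of the pan-stromal genes 16 of 20 lie above 0, of the adipocyte genes 11 of 12 below it and of the macrophage genes 10 of 10 above it.

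Markers of other cells moved beside Gsn and Zfp423. Of 12 mature adipocyte genes 4 fell, Cfd, Retn, Adipoq and Plin1, with a median log2 fold change of -0.78 and summed levels of 15410 to 23128 CPM in controls and 6750 to 10501 CPM in ANKO. Adiponectin, Adipoq, whose promoter drives the Cre, had 730, 951 and 1002 CPM in controls and 258, 398 and 370 CPM in ANKO (log2 fold change -1.39, edgeR adjusted p = 0.0154). The call on Adipoq was lost without control 2, control 3 or ANKO 3 (adjusted p = 0.0689, 0.0528 and 0.0728), and that on Plin1 without control 2 or ANKO 3 (0.0722 and 0.11) and with the muscle covariate (0.0652). Cfd, adipsin, and Retn, resistin, fell by 2.60 and by 2.27 on the log2 scale and were called under all 16 alternatives run. The 10 macrophage genes all had positive log2 fold changes and 3 rose (Adgre1, Gpnmb and Trem2), with summed levels of 596 to 661 CPM in controls and 818 to 1056 CPM in ANKO. Adgre1 was called under 15 of the 16 alternatives, not without control 2 (adjusted p = 0.0544), Gpnmb under 10 and Trem2 under 8. Gpnmb was not called without control 1, control 2, control 3, ANKO 2 or ANKO 3 (adjusted p = 0.0673 to 0.133), nor was Trem2 (0.0764 to 0.143). Without the low-count filter both lost the edgeR call (adjusted p = 0.0738 for Gpnmb and 0.0572 for Trem2). Trem2 was also not called by limma-voom (adjusted p = 0.109) or by edgeR with the replicate block (0.19). Of 10 mural genes 1 fell, Mcam, an adhesion molecule of pericytes, smooth muscle and endothelium. Mcam stood at 148, 156 and 169 CPM in controls and at 58.6, 81.9 and 65.9 CPM in ANKO (43.5% of control, SE 0.129 on the log2 scale, edgeR adjusted p = 0.00717). It was called under all 16 alternatives (highest adjusted p = 0.0491), and the summed mural levels overlapped, at 1180 to 1241 CPM in controls and 1032 to 1432 CPM in ANKO. The 10 endothelial genes all had negative ones and none was called by edgeR, DESeq2 or limma-voom, with 2 at an unadjusted p under 0.05. Their summed levels were 940 to 1078 CPM in controls and 789 to 916 CPM in ANKO. Mesothelial genes were scarce, at 5.33 to 11.3 CPM in sum, with Msln, Upk3b, Upk1b and Wt1 too low to be tested. The part of these cell types in the fall of Gsn and Zfp423 was not tested.

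**Figure D5:**
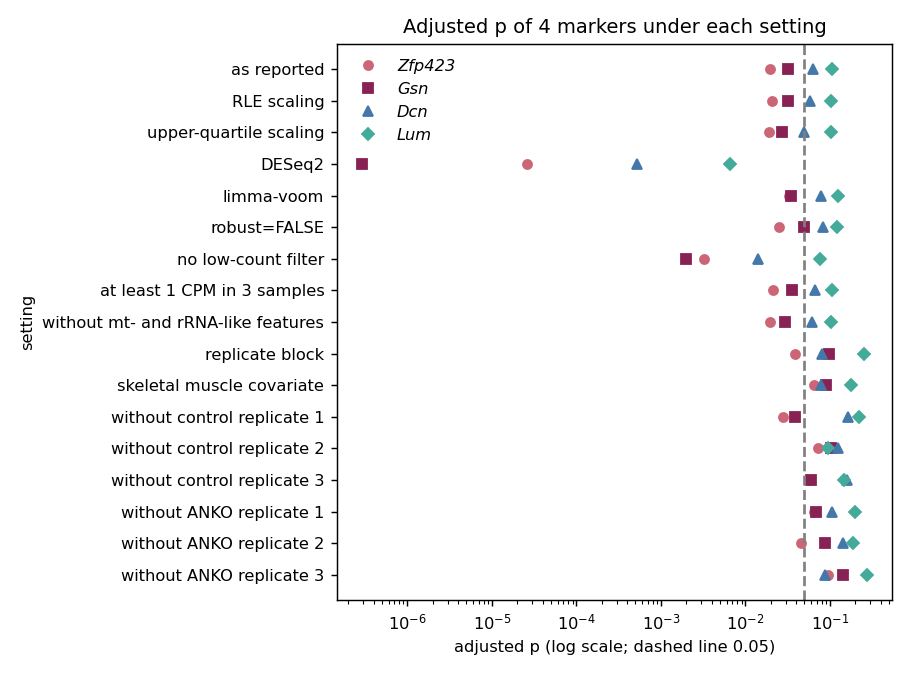
Adjusted p of Zfp423, Gsn, Dcn and Lum on a log axis, under the reported test and 16 alternatives listed on the vertical axis. The dashed line is 0.05. Zfp423 and Gsn lie left of it in 11 and 9 of the alternatives, Dcn in 3 and Lum in 1.

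Exons of genes on the opposite strand overlap those of 4 markers. They cover 4.55% and 1.66% of the exon length of Pdgfra, 3.67% of that of Dpp4, 3.49% of that of Pi16 and 2.03% of that of Cd34. A microRNA gene on the same strand covers 0.299% of Pdgfra. The sources used here do not say whether the counting used strand, so reads from such partners cannot be told apart in these genes. No other gene's exons overlap those of Zfp423, Gsn, Dcn, Lum, Ly6a or Fap.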

How the data were processed

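Libraries were made from flash-frozen fat after Qiazol and RNeasy extraction and Ribo-Zero Gold depletion of ribosomal RNA, per the labels' protocols. STAR 2.0.4b, Subread, featureCounts 1.45 and build GRCm38 are named in the submitters' processing notes. The sources used here give neither annotation nor strand setting. The authors deposited raw counts per gene symbol, 1 column per mouse, without normalisation. Exact repeats (329 of 40757 lines, none of a marker) were dropped, and groups came from the sample titles.

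All features passing filterByExpr (minimum count 10, minimum total 15; 19272) were fitted with edgeR 4.0.16 (R 4.3.3): TMM scaling, robust quasi-likelihood F test, Benjamini-Hochberg adjustment over all features, threshold 0.05. SE is |log2 fold change| over the root of the F statistic, CPM is TMM-scaled, and n = 3 mice per group. The median SE was 0.186 (log2). Lengths, positions and overlaps are from GENCODE M21 (GRCm38), and promoters from RefSeq. Alternatives used DESeq2 1.42.0, limma-voom 3.58.1, other scalings and filters, a replicate block, a muscle covariate and leaving out each library. The fitting was tested on simulated data. There the share of false calls was above the threshold, and most of the smallest changes put in were not called.

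The markers and the 17 other lists were chosen with earlier results of these data known. Named genes were the markers, Nampt and, per list, the called genes (at most 3) or else the smallest p. No gene was named by this rule from the endothelial, lymphocyte, mesothelial, epithelial, Schwann cell and muscle lists. The 3 nearest profiles are given for Gsn, Zfp423 and Pdgfra alone. Zfp521, Flii, Bgn, Prelp, Pdgfrb, Plin1, Fabp4, Pparg, Col1a1, Col1a2, Col3a1, Col6a3, Fn1, Prrx1, Serpinf1, Cd44, Sfrp4 and Eng were added after their values were seen.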

Additional observations from a re-analysis of the deposited data

How the results depend on the processing

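Zfp423 and Gsn kept a negative log2 fold change in all 16 alternatives (-0.73 to -0.58 and -1.06 to -0.81), and Dcn and Lum a positive one (0.54 to 0.74 and 0.54 to 0.82). As the groups of these 4 genes do not overlap, an unchanged direction when a library is left out is no sign of stability. The number of markers called lower, 2 as reported, was 1 with the replicate block, 0 with the muscle covariate and 0 to 2 when 1 library was left out. The number called higher, 0 as reported, was 1 with upper-quartile scaling, 2 with DESeq2, 1 without the low-count filter and 0 in each fit that left out a library. Over all genes, 94 higher calls became 388 with DESeq2, 167 without the filter, 62 with the replicate block, 38 with the muscle covariate and 20 to 107 without 1 library. The 212 lower calls became 498 with DESeq2, 95 with the muscle covariate and 55 to 221 without 1 library. Lower calls made up 69.3% of all calls, 56.2% with DESeq2 and 46.5% without ANKO 1. The fits that left out a library had fewer samples, and those that added a term had fewer residual degrees of freedom. The cause of these changes was not tested for any setting. The log2 fold changes of Dpp4, Cd34 and Ly6a changed sign in some fits that left out a library, with ranges of -0.11 to 0.0899, -0.024 to 0.24 and -0.14 to 0.19. The replicate numbers match between the groups, but no label says that they pair mice. The deviations of same-numbered mice correlated at 0.0746, -0.0333 and -0.0435. With 3 mice per group these values cannot decide whether such mice share an origin. With the replicate block Gsn had an edgeR adjusted p = 0.0968, Sfrp2 0.0646 and Zfp423 0.0389. With 3 mice per group the intervals of the uncalled markers are wide. The marker with the fewest reads, Fap, had 401 to 615 counts per library, and no fit at another depth was run.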
